A study of Mus musculus with 6 samples.

Results

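Complement and coagulation factors are plasma proteins that the liver secretes. The 40 genes described here were taken by name from the deposited table of 41838 genes, 1 row each, as liver-made complement and clotting proteins with their inhibitors. Transcripts were compared by poly(A) RNA sequencing between 3 livers of Alkbh5-HKO mice and 3 livers of Alkbh5-flox mice, whose age the series text gives as 9 weeks and whose feeding the protocol gives as 9 weeks of normal chow. The Alkbh5-flox mice have the genotype Alkbh5flox/flox, a floxed Alkbh5 gene, whose protein is a demethylase acting on N6-methyladenosine (m6A) in RNA. The Alkbh5-HKO mice, written Alkbh5-CKO in the sample titles, are those in which Alkbh5 was targeted. What HKO and CKO stand for, the driver of the deletion and the sex of the mice are not given in those labels.

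Complement is a cascade of plasma proteases that marks and lyses microbes. The lectin and classical routes start from recognition proteins, the alternative route from C3 itself, and all of them meet at C3 and then at C5, from which C6 to C9 build the membrane attack complex. Coagulation runs through serine proteases to thrombin, which cuts fibrinogen into fibrin, and plasmin later dissolves the clot. Hepatocytes make most of these proteins, many of them under transcription factors such as HNF4A and the C/EBP family.

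Levels are the deposited FPKM, in which fragments are scaled to gene length and library size, with mean ± SD over n = 3 livers. Fold changes are given as HKO minus flox differences of log2(FPKM + 1), with limma 95% intervals. Recovered depth was 14907384 to 17034754 reads per library, of which the 40 genes took 4.02% to 5.12%. Alkbh5 was at 0.508, 0.443 and 0.476 FPKM in HKO livers, against 17.8, 16.8 and 14.8 FPKM in flox livers. HKO library 1 stood apart on the first principal component of all tested genes (38.6, against 15.7 and 4.52 in the other HKO libraries and -22.7 to -13.7 in flox). The 10 hepatocyte markers summed to 49944 to 53140 FPKM in HKO livers and 44748 to 54249 FPKM in flox livers, a sum carried mostly by Alb. Of these markers Alb lay wholly above flox (fold change 0.35) and Apoa1 and Hnf4a wholly below (-0.78 and -0.55), none passing, and their part in the members' values was not tested. Of 6 platelet and megakaryocyte markers, 5 were below 0.5 FPKM in every library, Pf4 among them at 0. In bulk liver, fewer cells of a type and less RNA per cell cannot be told apart.

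No complement or coagulation gene passed the test. A mean of at least 1 FPKM was needed for testing, which 39 of the 40 reached. The exception was C2, the protease that C4b binds in the classical route, at 0.886, 0.286 and 0.203 FPKM in HKO livers and 0.189, 0.325 and 0.199 FPKM in flox livers. Its deposited length was 3.60 times its longest protein-coding GENCODE transcript, so this level is uncertain. Limma with Benjamini-Hochberg (BH) adjustment over all 10453 tested genes called 0 of the 39, where it called 0.488% of all tested genes (0.268% higher and 0.22% lower). Limma voom on the recovered reads also called 0. At an unadjusted p under 0.05 limma had 5 of them, 12.8% against 17% of all tested genes, and voom had 6. Of the 5 by limma, 1 was positive and 4 negative, where 8.57% of all tested genes were positive and 8.44% negative at that p. The groups did not overlap in 9 of the 39, which is 23.1% against 25.4% of all tested genes. Of the tested members 21 had a positive and 18 a negative fold change, with a median of 0.03, beside -0.02 for all tested genes. Their median absolute fold change was 0.21, beside 0.20 for all tested genes. A mean of at least 10 FPKM was reached by 38 of the 39 members and by 3856 tested genes. Of these 3856 genes 26.5% did not overlap, and their median absolute fold change was 0.21.

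The intervals show how much change these livers could have held. In 34 of the 39 genes the 95% interval lay inside a 2-fold change in either direction on the log2(FPKM + 1) scale. The intervals of C6, C8b, C9, C4b and Cfb reached 2-fold or beyond. In 10 genes the interval stayed within 0.5 on the log2 scale.

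**Figure D1:**
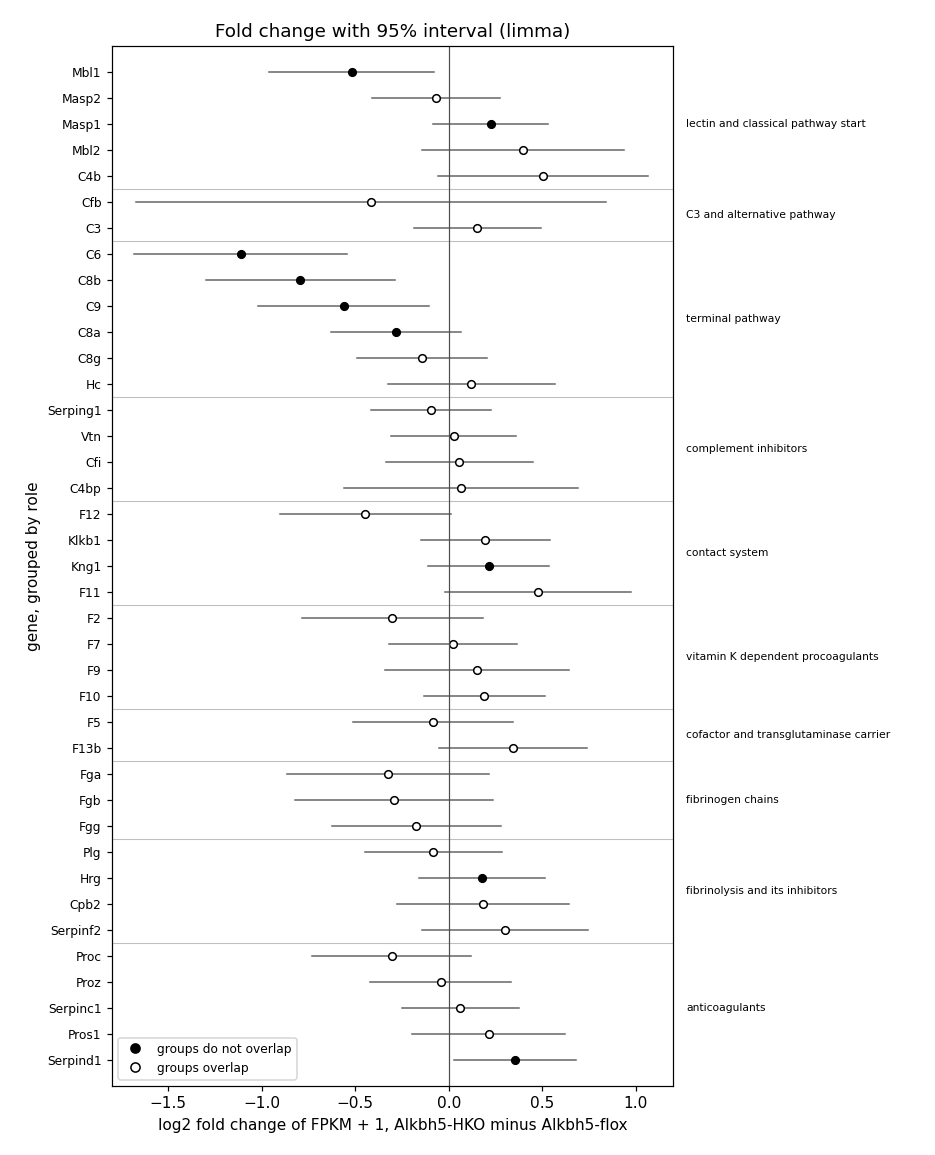
Fold change of each of the 39 tested genes on the log2(FPKM + 1) scale, HKO minus flox, drawn with its limma 95% interval as a line and genes grouped by role down the page. Filled points are the 9 genes whose groups do not overlap, and C6, C8b and C9 lie farthest to the left.

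Most of these transcripts, chosen as those of liver-made proteins, were among the most abundant in these livers. Of the 40 genes, 9 ranked in the first 100 by mean FPKM among all 41838 genes, 24 in the first 500 and 32 in the first 1000. Fgb, the beta chain of fibrinogen, was the most abundant, at rank 28. Vtn, which encodes the clot and complement regulator vitronectin, followed at rank 37, C3 at 40, Fgg at 41 and Fga at 44. The lowest ranks were those of C2 at 13010, Cfb at 6431 and Masp1 at 2810. The sum over the 40 genes was 14414, 18017 and 16839 FPKM in HKO livers, against 17240.2, 18197 and 16156 FPKM in flox livers. The groups overlapped (exact permutation test, two-sided, p = 0.6, where 3 against 3 cannot go below 0.1).

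**Figure D2:**
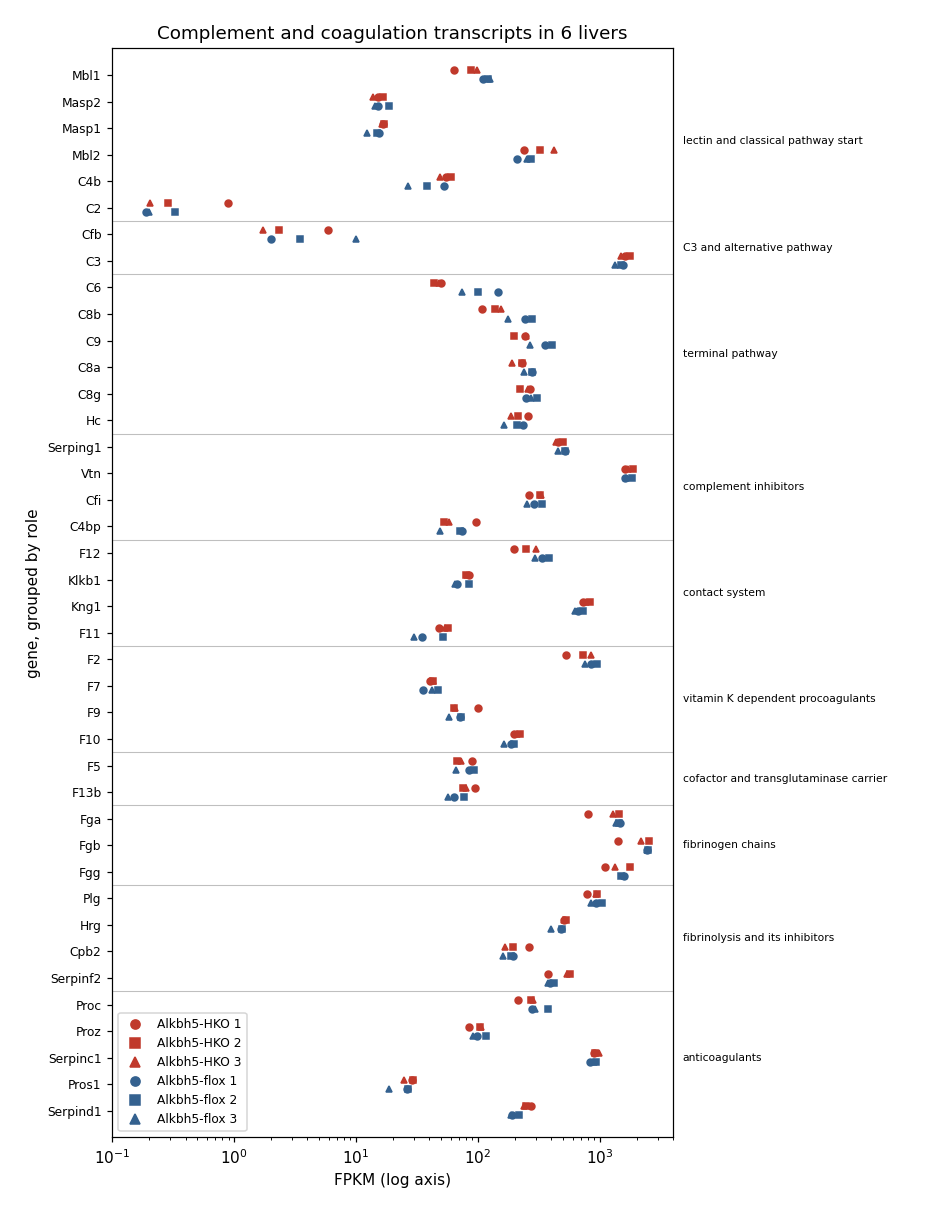
FPKM of the 40 genes in each of 6 livers on a log axis, with Alkbh5-HKO points above Alkbh5-flox points in each row and marker shapes for libraries 1 to 3. The levels run from 0.189 FPKM for C2 to 2556 FPKM for Fgb.

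The terminal complement pathway held 4 of the 5 genes that lay below flox in every HKO liver. C6, which joins C5b to start the membrane attack complex, was at 49.5, 43.3 and 48.1 FPKM in HKO livers, against 146, 100.4 and 73.6 FPKM in flox livers. The HKO livers were close to one another and all were below the lowest flox liver, while the flox livers spread over a wide range. The mean was 46.96 ± 3.26 FPKM in HKO and 107 ± 36.7 FPKM in flox, 0.44 of the flox level, with a fold change of -1.11 (95% interval -1.69 to -0.54). It did not pass (limma BH adjusted p = 0.0911), and over 18 other settings its adjusted p was 0.0544 to 0.267.

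C8b, the beta chain of C8, was at 108, 138 and 154 FPKM in HKO livers and at 244, 278 and 178 FPKM in flox livers. Each HKO liver lay below each flox liver. Its fold change was -0.79 (95% interval -1.30 to -0.29, limma BH adjusted p = 0.14). C9, which polymerises into the pore, was at 242, 199 and 248 FPKM in HKO livers and at 354, 408 and 267 FPKM in flox livers. Here too the groups did not overlap, by a margin of 248 to 267 FPKM, and the fold change was -0.56 (95% interval -1.02 to -0.11, limma BH adjusted p = 0.212).

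C8a, the alpha chain that binds C8b, was at 229, 229.8 and 191 FPKM in HKO livers and at 275, 278 and 237 FPKM in flox livers. Its groups did not overlap either, with a smaller fold change of -0.28 (95% interval -0.63 to 0.06, limma BH adjusted p = 0.378). The remaining members of the terminal pathway overlapped between the groups. C8g, the lipocalin-like gamma chain, averaged 249 ± 23.2 FPKM in HKO and 276 ± 28.3 FPKM in flox (fold change -0.15). Hc, the mouse gene of C5, averaged 220.4 ± 35.7 FPKM in HKO and 203 ± 35.2 FPKM in flox (fold change 0.12).

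Of the 6 terminal genes, 4 thus lay wholly below flox, and 0 passed the test. Over all tested genes 12.6% lay wholly below flox, and over the 39 members 12.8% did. The summed FPKM of the 6 genes was 1156, 1046 and 1085 in HKO livers, against 1502, 1581 and 1193 in flox livers. Flox library 3 was the flox library nearest to the HKO livers for C6, C8b, C9 and C8a. Red cell transcripts differed between the same groups, with 5 of 5 tested markers wholly below flox and a summed level of 105 to 209 FPKM in HKO livers and 352 to 674 FPKM in flox livers. Hbb-bt, a beta globin, was the 1 red cell marker to pass (limma BH adjusted p = 0.0373). Their part in the terminal pathway values was not tested.

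**Figure D3:**
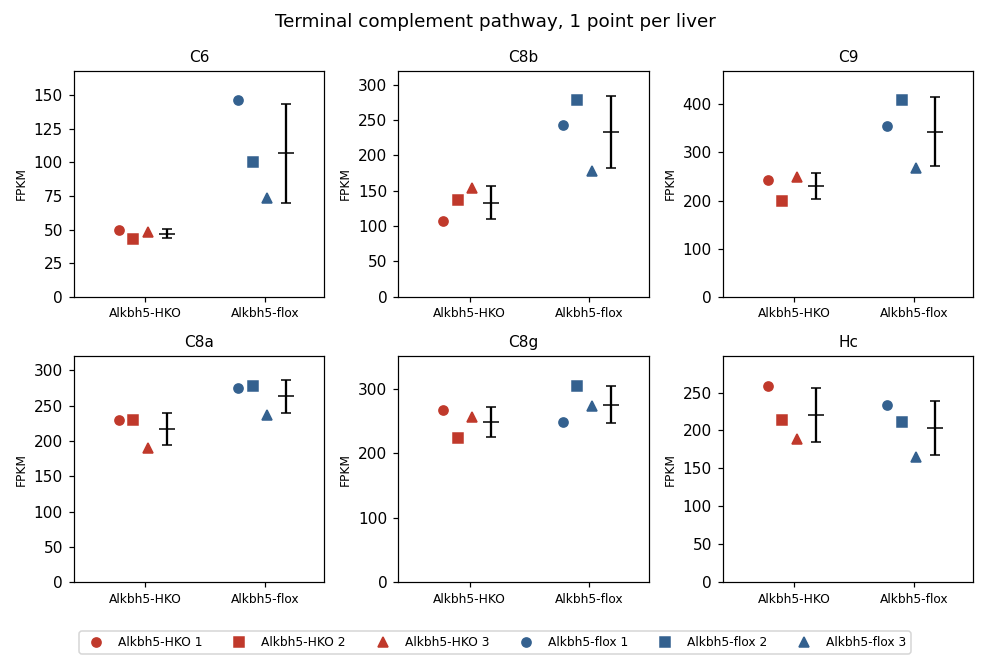
FPKM of the 6 terminal pathway genes in each liver, Alkbh5-HKO at the left and Alkbh5-flox at the right of each panel, with mean ± SD (n = 3) as bars. The groups are separate for C6, C8b, C9 and C8a and overlap for C8g and Hc.

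The window before the transcription start is shown for these 4 genes, as the members that lay below flox in every HKO liver within a single pathway. Sequences are from RefSeq on GRCm38.p6, read 5′ to 3′ on the strand of the gene, and are the part of the 250 bases before the RefSeq start that lies outside the deposited gene span. Capitals mark matches on either strand to TTGCNNAA, a C/EBP motif. C6 is chr15:4726960-4727066 on the plus strand, C8b chr4:104766067-104766316 on the plus strand, C9 chr15:6445096-6445332 on the plus strand and C8a chr4:104876488-104876648 on the minus strand.
C6: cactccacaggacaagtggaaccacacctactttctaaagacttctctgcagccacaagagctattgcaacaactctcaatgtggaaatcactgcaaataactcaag
C8b: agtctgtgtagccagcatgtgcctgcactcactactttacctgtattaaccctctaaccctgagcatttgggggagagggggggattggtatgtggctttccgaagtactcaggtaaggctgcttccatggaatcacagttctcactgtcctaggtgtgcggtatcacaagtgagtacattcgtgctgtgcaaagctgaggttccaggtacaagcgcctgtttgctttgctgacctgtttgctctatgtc
C9: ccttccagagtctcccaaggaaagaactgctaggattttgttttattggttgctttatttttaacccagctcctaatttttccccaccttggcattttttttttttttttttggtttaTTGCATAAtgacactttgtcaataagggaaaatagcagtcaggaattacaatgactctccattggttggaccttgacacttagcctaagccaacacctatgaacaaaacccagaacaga
C8a: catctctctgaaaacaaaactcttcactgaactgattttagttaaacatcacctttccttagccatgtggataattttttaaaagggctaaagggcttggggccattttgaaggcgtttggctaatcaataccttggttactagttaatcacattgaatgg

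TTGCNNAA occurs in the window of C9 and in none of the 250 bases of C6, C8b and C8a. Among the 31 members with a RefSeq window (32 windows), 8 held TTGCNNAA (25% of windows), against 9.57% of all 32817 windows. They were C3, C9, F9, F11, Fga, Fgb, Hrg and Klkb1, so that genes with fold changes on either side of 0 held it. An HNF4 core, CAAAGTCC, was in 0 of the 32 member windows and in 1.198% of all windows. Both strands were searched, and in the member windows no match overlapped another. These motifs were chosen after the values were seen, and a match is a run of letters and not a measured site.

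The transcripts of liver transcription factors were measured in the same livers. Hnf4a was at 83.2, 116 and 133 FPKM in HKO livers and 165, 164 and 151 FPKM in flox livers, wholly below flox (fold change -0.55, limma BH adjusted p = 0.216). Onecut1, another hepatocyte factor, was at 3.46, 1.17 and 3.91 FPKM in HKO livers and at 6.32, 5.80 and 20.3 FPKM in flox livers, separate as well, with flox library 3 far above the rest (fold change -1.49, limma BH adjusted p = 0.21). Cebpb, a C/EBP factor of the acute phase response, was at 109.9, 162 and 198 FPKM in HKO livers and at 412, 366 and 165 FPKM in flox livers, where flox library 3 lay among the HKO livers. None of 17 tested genes in the list of liver transcription factors passed (limma with BH adjustment, with 5 at an unadjusted p under 0.05). Of them 6 had a positive and 11 a negative fold change (median -0.11), and 2 lay wholly below flox and 1, Nr2f2, wholly above. Over all tested genes 17% had such a p, 12.6% lay wholly below and 12.8% wholly above.

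The start of the lectin and classical routes had genes on either side of 0. Mbl1, 1 of the mouse mannose-binding lectins that recognise microbial sugars, was at 63.4, 88.4 and 99.0 FPKM in HKO livers and at 109.7, 121 and 125 FPKM in flox livers. It lay wholly below flox, with a fold change of -0.52 (95% interval -0.96 to -0.08, limma BH adjusted p = 0.229). Its paralog Mbl2 was at 238, 325 and 424 FPKM in HKO livers and 209, 270.2 and 255 FPKM in flox livers, overlapping, with a fold change of 0.40 (95% interval -0.14 to 0.94). The lectins thus had opposite signs, and the difference between them was not tested. Without HKO library 1 the fold changes were -0.33 for Mbl1 and 0.61 for Mbl2, and without HKO library 3 that of Mbl2 was 0.19.

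Masp1, a protease that the lectins carry, was at 16.6, 16.9 and 16.4 FPKM in HKO livers and at 15.4, 14.9 and 12.2 FPKM in flox livers. It lay wholly above flox, by a small margin (fold change 0.22, 95% interval -0.08 to 0.53, limma BH adjusted p = 0.426), and without flox library 3 the value was 0.13. Masp2, the lectin protease that cuts C4 and C2, averaged 15.2 ± 1.42 FPKM in HKO and 16.0 ± 2.27 FPKM in flox. C4b, the source of the C4 fragment that starts the C3 convertase, was at 54.6, 59.9 and 48.6 FPKM in HKO livers and at 52.4, 38.3 and 26.9 FPKM in flox livers (fold change 0.51, 95% interval -0.06 to 1.07, limma BH adjusted p = 0.336). Without flox library 3 it was 0.27. Its groups overlapped, and it has a near-identical relative, C4a, so its value is uncertain where reads were shared.

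C3, the protein on which all routes meet, was at 1603, 1776 and 1506 FPKM in HKO livers and at 1563, 1487 and 1340.3 FPKM in flox livers, overlapping (fold change 0.15, 95% interval -0.18 to 0.49). Cfb, the protease of the alternative route, was at 5.88, 2.35 and 1.73 FPKM in HKO livers and 2.02, 3.48 and 9.997 FPKM in flox livers. Flox library 3 and HKO library 1 were high within their groups, and its fold change of -0.42 had the widest interval of the 39 genes (-1.67 to 0.84). The deposited lengths of Cfb, C2 and C4b, by which their FPKM were divided, were 3.57, 3.60 and 3.66 times their longest protein-coding GENCODE transcript, where the median of the 40 genes was 1.03. For Cfb and C4b it also exceeded the whole gene span, 9812 bases over a span of 6141 and 19708 bases over a span of 15866. C2, 87 bases from Cfb on the same strand, rested on 29 to 135 reads per library. The FPKM levels of these 3 genes are thus uncertain, and any sharing of reads between Cfb and C2 was not tested.

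None of the complement inhibitors separated the groups. Serping1, the C1 inhibitor that also restrains the contact system, averaged 463 ± 31.9 FPKM in HKO and 495 ± 33.6 FPKM in flox (fold change -0.10). Vtn averaged 1721 ± 134 FPKM in HKO and 1691 ± 122 FPKM in flox (fold change 0.03). Cfi, the protease that inactivates C3b and C4b, averaged 303 ± 37.5 FPKM in HKO and 292 ± 40.5 FPKM in flox (fold change 0.06). For all 3 the interval stayed within 0.5 on the log2 scale. C4bp, the cofactor that binds C4b, was at 95.9, 52.6 and 58.0 FPKM in HKO livers and at 73.4, 71.3 and 48.6 FPKM in flox livers, so that its HKO spread rested on library 1.

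Other genes of complement, from a list of 36, had 21 tested, of which 8 had a positive and 13 a negative fold change (median -0.17), and 0 passed by limma with BH adjustment, with 2 at an unadjusted p under 0.05. Over all tested genes 17% had such a p. Wholly below flox lay 4 and wholly above 0, where 12.6% and 12.8% of all tested genes did. They included C1ra and C1s1, proteases of the C1 complex. C1ra averaged 96.8 ± 16.3 FPKM in HKO and 132 ± 14.9 FPKM in flox (fold change -0.45, limma BH adjusted p = 0.246). C1s1 averaged 125 ± 11.6 FPKM in HKO and 158 ± 20.5 FPKM in flox (fold change -0.33, limma BH adjusted p = 0.328). Fcna, a ficolin that recognises microbial sugars, averaged 12.4 ± 1.91 FPKM in HKO and 19.5 ± 5.78 FPKM in flox (fold change -0.59, limma BH adjusted p = 0.243). Among 11 Kupffer cell markers, which include the C1q chains, the groups overlapped in every case, with a summed level of 205 to 368 FPKM in HKO and 201 to 302 FPKM in flox.

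Coagulation genes had none wholly below flox. Of the 22 coagulation, anticoagulation and fibrinolysis genes 13 had a positive and 9 a negative fold change (median 0.11), and 3 lay wholly above flox. The 17 tested complement genes had 8 positive and 9 negative values (median -0.07), with 1 wholly above and 5 wholly below flox. Over all tested genes 12.8% lay wholly above and 12.6% wholly below. The difference between these arms was not tested.

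The fibrinogen chains were below every flox liver in HKO libraries 1 and 3, and not in HKO library 2. Fga, the alpha chain that carries fibrinopeptide A, was at 794, 1426 and 1286 FPKM in HKO livers and at 1465, 1428 and 1366 FPKM in flox livers. Fgb was at 1420.2, 2556 and 2197 FPKM in HKO livers and at 2437, 2487 and 2425 FPKM in flox livers. Fgg, the gamma chain to which the other chains are joined, was at 1101, 1756 and 1338 FPKM in HKO livers and at 1584, 1482 and 1583 FPKM in flox livers. HKO library 1 was the lowest of all 6 libraries for each chain, and HKO library 2 was the highest for Fgb and Fgg. Fold changes were -0.32 for Fga, -0.29 for Fgb and -0.17 for Fgg (limma BH adjusted p = 0.502, 0.537 and 0.671). Without HKO library 1 they were -0.07, -0.05 and -0.02, and without HKO library 2 they were -0.49, -0.47 and -0.35.

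Within a liver the ratio of Fga to Fgb varied less than that of Fgg to Fgb. The ratio of Fga to Fgb FPKM was 0.559, 0.558 and 0.585 in HKO livers and 0.601, 0.574 and 0.563 in flox livers. That of Fgg to Fgb was 0.775, 0.687 and 0.609 in HKO livers and 0.650, 0.596 and 0.653 in flox livers. Neither separated the groups (exact permutation tests, two-sided, p = 0.5 and 0.4). These are ratios on the deposited lengths, and that of Fgb was 0.448 of its longest GENCODE transcript. The 3 genes lie in a row on chromosome 3, with gaps of 11096 and 8618 bases.

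**Figure D4:**
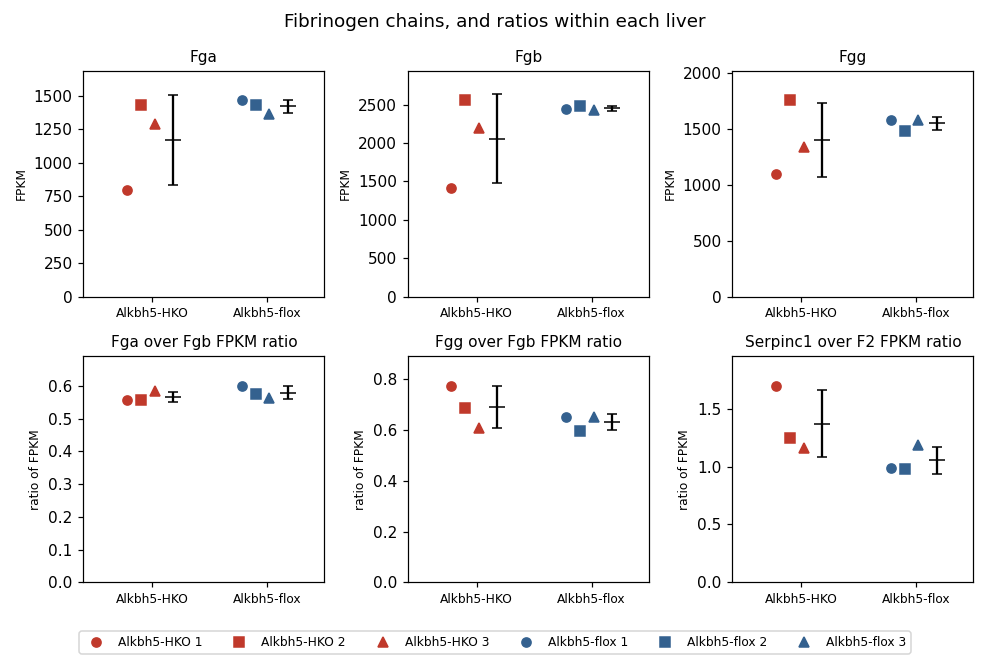
FPKM of the fibrinogen chains Fga, Fgb and Fgg in each liver (top), and ratios of FPKM within each liver (bottom), Alkbh5-HKO at the left and Alkbh5-flox at the right of each panel, with mean ± SD (n = 3) as bars. HKO library 1 is lowest for each chain, while the ratio of Fga to Fgb stays between 0.558 and 0.601.

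Of the vitamin K dependent procoagulants, which need gamma-carboxylation to bind membranes, none separated the groups. F2, the gene of prothrombin, was at 527, 726 and 846 FPKM in HKO livers and at 845, 955 and 754 FPKM in flox livers (fold change -0.30, 95% interval -0.79 to 0.18), and without HKO library 1 the fold change was -0.11. F7, which starts clotting with tissue factor, averaged 41.9 ± 1.52 FPKM in HKO and 41.6 ± 5.97 FPKM in flox, with a fold change of 0.02 (95% interval -0.32 to 0.36). F9, the factor lacking in haemophilia B, averaged 75.9 ± 20.4 FPKM in HKO and 67.1 ± 8.45 FPKM in flox, and F10, which forms thrombin, 208 ± 12.4 FPKM in HKO and 183 ± 16.4 FPKM in flox. F5, the cofactor of factor Xa, averaged 76.4 ± 11.2 FPKM in HKO and 81.3 ± 13.8 FPKM in flox. F13b, the carrier subunit of the fibrin cross-linking enzyme, averaged 83.5 ± 10.49 FPKM in HKO and 65.8 ± 10.7 FPKM in flox (fold change 0.34, limma BH adjusted p = 0.354). Their groups overlapped as well.

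The contact system, which starts clotting on charged surfaces and releases bradykinin, had values on either side of 0. F12, its first protease, was at 197, 250.1 and 299 FPKM in HKO livers and at 334, 383 and 292 FPKM in flox livers. The groups overlapped in a single pair of livers, HKO 3 and flox 3, and the fold change was -0.45 (95% interval -0.90 to 0.01, limma BH adjusted p = 0.303). F11, which factor XIIa activates, was at 47.7, 57.1 and 54.0 FPKM in HKO livers and 34.5, 51.6 and 29.9 FPKM in flox livers, with a fold change of 0.48 (95% interval -0.02 to 0.98, limma BH adjusted p = 0.312). Klkb1, the plasma prekallikrein gene beside F11 on chromosome 8, averaged 81.9 ± 2.33 FPKM in HKO and 71.9 ± 10.7 FPKM in flox. Kng1, the kininogen from which bradykinin is cut, was at 732, 827 and 776 FPKM in HKO livers and 668, 724 and 623 FPKM in flox livers. It lay wholly above flox (fold change 0.21, 95% interval -0.11 to 0.54, limma BH adjusted p = 0.463). Kng2, a near-identical relative whose reads may be shared with Kng1, was wholly above flox as well (119.5 ± 8.40 FPKM in HKO and 100.97 ± 4.503 FPKM in flox).

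Among the anticoagulants Serpind1 lay wholly above flox. It encodes heparin cofactor II, a thrombin inhibitor, and was at 275, 248 and 239.9 FPKM in HKO livers and at 192, 219 and 186 FPKM in flox livers. Its fold change of 0.35 (95% interval 0.03 to 0.68) did not pass (limma BH adjusted p = 0.256), and it was the 1 member with a positive value at an unadjusted p under 0.05. Serpinc1, the gene of antithrombin, averaged 927 ± 47.0 FPKM in HKO and 889 ± 52.5 FPKM in flox, with a fold change of 0.06 (95% interval -0.25 to 0.37). The ratio of Serpinc1 to F2 FPKM was 1.70, 1.25 and 1.16 in HKO livers and 0.987, 0.983 and 1.19 in flox livers, which overlapped (exact permutation test, two-sided, p = 0.2). Its HKO minus flox difference of means was 0.316, and 0.151 without HKO library 1. The ratio rests on deposited lengths, and that of Serpinc1 was 0.445 of its longest protein-coding GENCODE transcript. Proc, the protein C gene, averaged 255 ± 37.4 FPKM in HKO and 316 ± 52.1 FPKM in flox (fold change -0.31, limma BH adjusted p = 0.431). Its cofactor Pros1 averaged 27.6 ± 2.59 FPKM in HKO and 23.9 ± 4.54 FPKM in flox. Proz, which helps to inhibit factor Xa, averaged 98.7 ± 11.7 FPKM in HKO and 102 ± 13.3 FPKM in flox.

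Genes of clot dissolution overlapped between the groups apart from Hrg. Plg, the gene of plasminogen, averaged 887 ± 90.2 FPKM in HKO and 939 ± 103 FPKM in flox (fold change -0.08). Serpinf2, the plasmin inhibitor, was at 377, 572 and 542 FPKM in HKO livers and at 391, 425 and 376 FPKM in flox livers, with HKO library 1 on the side of flox (fold change 0.30, limma BH adjusted p = 0.449). Cpb2, the carboxypeptidase that slows fibrinolysis, averaged 208 ± 49.1 FPKM in HKO and 181 ± 18.5 FPKM in flox. Hrg, a histidine-rich protein that binds plasminogen and heparin, was at 507, 526 and 507 FPKM in HKO livers and at 478, 493 and 397 FPKM in flox livers. It lay wholly above flox (fold change 0.18, 95% interval -0.16 to 0.51, limma BH adjusted p = 0.554), and without flox library 3 the value was 0.0811.

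Other genes of coagulation and fibrinolysis, from a list of 32, had 15 tested, of which 10 had a positive and 5 a negative fold change (median 0.08), and 0 passed by limma with BH adjustment, with 2 at an unadjusted p under 0.05. Over all tested genes 17% had such a p. Wholly above flox lay 2 and wholly below 0, where 12.8% and 12.6% of all tested genes did. F2r, a thrombin receptor, was at 12.9, 14.2 and 13.4 FPKM in HKO livers and 9.83, 7.60 and 8.02 FPKM in flox livers (fold change 0.62, limma BH adjusted p = 0.0911). It lay wholly above flox. Tfpi2, a protease inhibitor related to the tissue factor pathway inhibitor, averaged 27.4 ± 4.43 FPKM in HKO and 19.7 ± 3.82 FPKM in flox, and its groups overlapped. F8, which liver endothelium makes, stayed below the testing limit at 0.722 ± 0.260 FPKM in HKO and 0.481 ± 0.0616 FPKM in flox.

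Several members are close neighbours on a chromosome, which the choice of genes did not use. Gaps of at most 100 kb joined 8 pairs of neighbouring members. C8b and C8a, on opposite strands 11130 bases apart on chromosome 4, had fold changes of -0.79 and -0.28. The ratio of C8b to C8a FPKM was 0.470, 0.599 and 0.810 in HKO livers and 0.885, 0.999 and 0.752 in flox livers, and the groups overlapped (exact permutation test, two-sided, p = 0.2). That of C8g, on chromosome 2, to C8a was 1.17, 0.971 and 1.34 in HKO livers and 0.903, 1.096 and 1.155 in flox livers (exact permutation test, two-sided, p = 0.4). F7, F10 and Proz, in a row on chromosome 8, had fold changes of 0.02, 0.19 and -0.04. F11 and Klkb1, 4637 bases apart, had 0.48 and 0.20, and Hrg and Kng1 on chromosome 16 had 0.18 and 0.21.

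The spread among the libraries of a group was as follows. The median coefficient of variation was 11.7% in HKO livers and 12.6% in flox livers for the tested members, beside 17.7% in HKO and 13.4% in flox for all tested genes. These medians were not matched for FPKM level. HKO library 1 was the lowest or highest of the 6 libraries for 43.6% of the tested members and for 57.0% of all tested genes. Flox library 3 was the lowest for 18 of the 39 members (46.2%), against 17.1% of all tested genes, and flox library 2 was the highest for 14 (35.9%), against 15.2% of all tested genes. The members' mean log2(FPKM + 1) was 7.51, 7.59 and 7.56 in HKO livers, against 7.60, 7.72 and 7.46 in flox livers. Over these 6 libraries the profiles most like that mean, by Pearson correlation, were those of Srsf4 (r = 0.978), Wbscr16 (0.970) and the serum amyloid gene Saa4 (0.968).

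Genes of the acute phase and of interleukin 6 (IL-6) signalling were taken from a list of 22. Several of its acute phase genes respond to the same cytokines as C3 and fibrinogen, and the list also holds cytokine receptors and signalling genes. All 22 were tested, 9 had a positive and 13 a negative fold change (median -0.16), and 0 passed by limma with BH adjustment, with 5 at an unadjusted p under 0.05. Over all tested genes 17% had such a p. Wholly below flox lay 1 and wholly above 1, where 12.6% and 12.8% of all tested genes did. Saa1, a serum amyloid gene, was at 36.5, 44.0 and 68.1 FPKM in HKO livers and at 182, 216 and 60.2 FPKM in flox livers, where flox library 3 lay among the HKO livers. Saa3 was wholly below flox (7.80 ± 2.39 FPKM in HKO and 13.3 ± 1.77 FPKM in flox), and Apcs, the gene of serum amyloid P, wholly above (156 ± 29.4 FPKM in HKO and 98.2 ± 15.9 FPKM in flox). Saa1 shares long stretches with other serum amyloid genes, and its reads may have been split among them.

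The letters GGACT, the DNA form of a frequent m6A motif, were counted in the longest protein-coding GENCODE transcript of each gene. The 39 tested members had a median of 1.01 per kb, beside 1.04 per kb for the 9176 tested genes with a match. C6 had 0.695 per kb, C8b 0.447, C9 2.44, C8a 1.11 and C8g 3.48, so that genes of the same pathway lay on both sides of the median. Mbl2 and Serping1 had none. Methylation itself was not measured here.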

How the data were processed

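Poly(A) RNA of 6 livers was sequenced paired-end, per the labels' protocols and series text. Per the series text and the submitters' processing notes, reads were aligned to GRCm38.p6 with HISAT2 2.0.5 and counted with featureCounts 1.5.0-p3, and DESeq2 1.20.0 was used. No source used here gives the annotation, the strand setting or how multiply matching reads were counted. The authors deposited FPKM, 1 column per library. FPKM times the deposited gene length gave whole multiples of 1 step in 100% of values (tolerance 0.001), which returned the reads. The library size divided by was 0.925 to 1.08 times their sum, and median-of-ratios factors computed from the FPKM were equal in all 6 libraries (1.01). The labels call the replicates independent and biological. Replicates of a group differed by a chi-square of 28.3 to 63.0 per degree of freedom, so none is a copy of another.

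All genes with a mean of at least 1 FPKM were fitted together in R 4.3.3 with limma 3.58.1 and statmod 1.5.0 (trend, robust, log2(FPKM + 1), no covariate), with BH adjustment at 0.05. Low genes thus have understated fold changes. Sums and ratios had exact permutation tests. Members, roles and lists were chosen with earlier results of these data known. The rule for named genes took every member whose groups did not overlap, the 5 most and 3 least abundant, the others by role, and at most 3 genes of each other list by smallest p. Cebpb, F8 and Pf4 lie outside that rule and were chosen after their values were seen. One gene of the transcription factor list is not reported here and is left out of that list's counts. Alternatives were the pseudocount (0.1, 5), the filter, 4 scalings, limma without trend and robust, the replicate block, voom and each library left out. Figures were drawn with Python 3.11.15 and matplotlib 3.10.9.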

Additional observations from a re-analysis of the deposited data

How the results depend on the processing

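No member passed limma or voom with BH adjustment under any of the 18 other settings, and 28 of the 39 tested members kept the sign of their fold change in all of them. The cause of the changes below was not tested. Masp2 was at 0.00680 with TPM, 0.00418 with scaling to the sum of reads and 0.00480 with voom on that sum, against -0.07 as reported. Proz was at 0.03451, 0.0318 and 0.0322 under the same settings, against -0.04, and Plg at 0.0449 with quantile scaling, against -0.08. With 1 library left out, fold changes spanned 0 for Hc (-0.0241 to 0.23), Cfb (-0.82 to 0.11), Cfi (-0.0448 to 0.16), Masp2 (-0.13 to 0.0399), C4bp (-0.20 to 0.23), F5 (-0.22 to 0.0193), F7 (-0.0851 to 0.12), F9 (-0.0570 to 0.26), Plg (-0.15 to 0.00523), Proz (-0.12 to 0.0598) and Vtn (-0.0350 to 0.0838). Members wholly above flox numbered 4 as reported. They numbered 10 with TPM, 9 with scaling to the sum of reads, 7 with quantile scaling and 4 to 9 with 1 library left out. Those wholly below numbered 5 as reported. Under these alternatives, in the same order, they numbered 6, 6, 5 and 5 to 9. The share of all tested genes wholly above was 15.2%, 15.0%, 13.9% and 16.3% to 18.6%, and that wholly below 9.46%, 9.30%, 12.1% and 15.3% to 21.5%. Of the members, 25.6% lay wholly above and 15.4% wholly below with TPM. With scaling to the sum of reads these were 23.1% and 15.4%, and with quantile scaling 17.9% and 12.8%. Leaving out 1 library also moved other fold changes by over 1.5 times, among them without HKO library 1, F12 (-0.29), Proc (-0.18), Serpinf2 (0.49), Cpb2 (0.00355) and Hnf4a (-0.36); without flox library 3, F11 (0.32), F10 (0.12), Pros1 (0.0511), Klkb1 (0.12), C3 (0.0916), Cpb2 (0.0973), Fcna (-0.38) and Onecut1 (-0.96). The median fold change of the members was -0.02 to 0.10 with 1 library left out. The scalings to the sum of reads were added after seeing the data. Saa1 passed without flox library 3 (fold change -2.03, limma BH adjusted p = 0.0497). Over all genes, 28 were called higher and 23 lower as reported, 78 and 42 with voom on the sum of reads, 0 and 1 without a filter, and 1 and 2 without HKO library 1.

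Deviations of same-numbered HKO and flox libraries from their group means correlated at 0.15, -0.14 and -0.05. Libraries of different number were not compared, so these values cannot show whether same-numbered libraries share more than a number. With the replicate block 0 members were called in either direction, the median fold change of the members was 0.03, and C6 had an adjusted p of 0.129 (limma). Over all genes the block called 1 higher and 8 lower.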
